A study of Homo sapiens with 12 samples.

Results

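The 10 genes described here encode secreted glycoproteins and small leucine-rich proteoglycans of the extracellular matrix: SPARC, POSTN, TNC, THBS1, FN1, LUM, DCN, BGN, FBN1 and MFAP5. They were taken by symbol from a table of 59498 genes, and all 10 were found. RNA had been sequenced from SKOV-3, an established human ovarian adenocarcinoma line, in 12 libraries. The 4 groups of 3 libraries were cisplatin-resistant cells (SKOV-3 CDDP) carrying the KDM5A and KDM5B double knockout (resistant dKO), resistant cells of unmodified genotype (resistant), parental cells carrying the same double knockout (parental dKO) and unmodified parental cells (parental). KDM5A and KDM5B encode demethylases that remove methyl groups from lysine 4 of histone H3. The labels give no cisplatin dose and leave out whether a knockout line is 1 clone or a pool. They also leave out whether a group's 3 libraries were grown as separate cultures, so the p-values are based on library-to-library spread that may be purely technical. Which matrix genes differ between resistant and parental cells, and which of them differ with the knockout, are the questions addressed.

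Fibronectin (FN1) is the scaffold on which cells assemble much of the pericellular matrix. SPARC, periostin (POSTN), tenascin-C (TNC) and thrombospondin-1 (THBS1) are matricellular proteins, which modulate adhesion and growth factor signalling more than they bear load. Lumican (LUM), decorin (DCN) and biglycan (BGN) bind collagen fibrils through leucine-rich repeats, and decorin and biglycan also carry chondroitin or dermatan sulfate chains. Fibrillin-1 (FBN1) polymerises into microfibrils, to which the glycoprotein encoded by MFAP5 binds, and microfibrils store latent TGF-beta. In ovarian tumours stromal fibroblasts are a main source of these proteins, and carcinoma cells can make some of them.

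Promoter sequences are shown for the 4 genes that were higher in resistant cells and for FBN1, which was lower, because genes with similar differences had unlike start regions. The RefSeq table (GRCh38.p14) held windows for 7 of the 10 genes, with LUM, DCN and MFAP5 as the others, and each window runs from 250 bases before to 50 bases after a RefSeq start. Each is written 5′ to 3′ in the direction of the gene, and capitals mark matches to 4 motifs searched on both strands: a TATA box (TATAAA), a GC box (GGGCGG), an AP-1 site (TGANTCA) and a SMAD box (CAGACA). In the windows shown no match overlapped another.
SPARC, chr5:151686866-151687165, minus strand: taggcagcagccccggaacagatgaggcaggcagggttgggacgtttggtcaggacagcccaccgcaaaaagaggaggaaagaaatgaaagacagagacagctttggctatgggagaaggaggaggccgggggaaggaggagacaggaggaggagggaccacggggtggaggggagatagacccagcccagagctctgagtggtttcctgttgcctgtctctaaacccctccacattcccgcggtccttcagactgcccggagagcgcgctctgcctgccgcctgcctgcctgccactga
POSTN, chr13:37598719-37599018, minus strand: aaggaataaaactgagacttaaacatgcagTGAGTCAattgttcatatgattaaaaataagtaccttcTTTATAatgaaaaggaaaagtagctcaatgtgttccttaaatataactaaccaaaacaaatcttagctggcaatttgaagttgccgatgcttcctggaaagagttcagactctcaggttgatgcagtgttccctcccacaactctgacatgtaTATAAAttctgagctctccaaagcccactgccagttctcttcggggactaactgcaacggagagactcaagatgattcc
TNC, chr9:115118108-115118407, minus strand: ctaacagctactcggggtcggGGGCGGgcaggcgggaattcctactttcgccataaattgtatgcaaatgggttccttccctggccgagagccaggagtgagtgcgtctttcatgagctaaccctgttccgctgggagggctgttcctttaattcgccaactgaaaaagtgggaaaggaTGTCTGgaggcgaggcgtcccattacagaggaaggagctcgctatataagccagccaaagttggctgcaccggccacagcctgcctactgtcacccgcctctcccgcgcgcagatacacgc
THBS1, chr15:39580829-39581128, plus strand: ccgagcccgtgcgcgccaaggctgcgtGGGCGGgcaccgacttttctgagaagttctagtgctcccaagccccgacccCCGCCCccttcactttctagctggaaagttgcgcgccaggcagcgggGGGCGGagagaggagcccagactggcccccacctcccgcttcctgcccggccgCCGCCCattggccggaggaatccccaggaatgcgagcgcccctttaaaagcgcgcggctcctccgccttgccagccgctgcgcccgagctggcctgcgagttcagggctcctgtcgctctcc
FBN1, chr15:48644921-48645220, minus strand: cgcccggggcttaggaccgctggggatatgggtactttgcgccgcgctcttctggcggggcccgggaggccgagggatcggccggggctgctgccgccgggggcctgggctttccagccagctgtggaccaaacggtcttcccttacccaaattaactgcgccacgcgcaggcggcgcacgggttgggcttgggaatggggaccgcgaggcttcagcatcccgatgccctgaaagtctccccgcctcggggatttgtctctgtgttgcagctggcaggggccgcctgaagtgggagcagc

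The POSTN window held TATA box letters at -29 and, on the reverse strand, at -182, and AP-1 letters at -220, counted from the start as 1 with no 0. It was the poorest in G and C of the 7 (39.0%) and had 3 CpG dinucleotides. The THBS1 window was 70.0% G and C, with 29 CpG dinucleotides and 4 GC boxes. TNC lay between them (57.3%, 18 CpG dinucleotides), with 1 GC box and 1 SMAD box. The SPARC window (61.3%, 11 CpG dinucleotides) and the FBN1 window (68.3%, 26 CpG dinucleotides) matched none of the 4 motifs, which says only that these letters are not there. Of the windows not shown, FN1 held 6 GC boxes, some of them overlapping, and BGN 5. Across all 35116 windows of this length 11.5% held the TATA box, 45% the GC box, 7.71% the AP-1 site and 16.9% the SMAD box, and the median was 58.7% G and C with 14 CpG dinucleotides. The RefSeq start lay 250 bases downstream of the GENCODE start of SPARC and 879 downstream of that of FBN1, so these windows show 1 of the possible starts.

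Library totals ran from 15659352 to 19706754 counts, and levels are given in CPM, counts scaled to a common effective library size. The KDM5A transcript averaged 14.8 ± 2.82 CPM in resistant dKO and 37.4 ± 3.49 in resistant libraries, and 19.7 ± 3.6 in parental dKO and 37.3 ± 5.59 in parental libraries (SD, n = 3 each); the libraries did not overlap, and neither difference passed by edgeR (log2 fold change -1.34 ± 0.25, adjusted p = 0.0524, and -0.92 ± 0.25, adjusted p = 1). KDM5B averaged 56.7 ± 28.2 and 76.6 ± 36.1 CPM in the resistant pair of groups and 53.8 ± 26.9 and 57.9 ± 19.3 in the parental pair, so its transcript level did not separate knockout from control. Keratins KRT8 and KRT18, epithelial cytoskeletal genes, and the ovarian lineage factor PAX8 averaged at least 93.3 CPM in every group, and 9, 9, 11 and 10 of 11 epithelial markers averaged at least 1 CPM in resistant dKO, resistant, parental dKO and parental cells. The epithelial markers differed in both directions. In resistant dKO and resistant cells KRT8 averaged 1045 and 1376 CPM, KRT18 375 and 499, CLDN4 26 and 24 and CDH1 4.07 and 3. The values in parental dKO and parental cells were lower, at 206 and 224, 93.3 and 108, 9.28 and 9.2, and 2.82 and 1.9 CPM. The other markers of the list averaged lower in the groups of resistant cells. KRT19 averaged 17.5 CPM in resistant dKO and 1.58 in resistant cells against 128 in parental dKO and 152 in parental cells, EPCAM 11.1 and 4.13 against 37.6 and 35.0 CPM, KRT7 6.69 and 4.24 against 22.0 and 22.4 CPM, and ERBB2 925 and 982 against 2307 and 4872 CPM. Those under 1 CPM in the groups of resistant cells were the tight junction gene CLDN3 (0.082 CPM in resistant dKO, 0.018 in resistant) and MUC16 (0.774 and 0.659 CPM). In parental dKO and parental cells CLDN3 averaged 6.17 and 7.4 CPM and MUC16 1.6 and 0.975 CPM. The summed level of 9 fibroblast markers was higher in resistant cells. It ran from 2559 to 4482 CPM in resistant dKO, from 369 to 968 in resistant, from 3.03 to 10.9 in parental dKO and from 2.27 to 6.32 in parental libraries. In the same order of groups, 7, 6, 2 and 1 of the 9 averaged at least 1 CPM. Of that list the collagen gene COL1A1 made up most of the sum (3651 and 671 CPM in resistant dKO and resistant cells). Not every marker was higher. THY1 averaged 0.033 and 0.040 CPM in these groups against 0.246 and 0.052 in parental dKO and parental cells. FAP averaged 0.822 and 0.218 CPM against 0.376 and 0.227. No fibroblast marker was at 0 in any group, and the part of these markers in the results below was not tested. Leukocyte markers summed to 14.5 to 21.7 CPM in resistant dKO, 11.0 to 15.1 in resistant, 24.1 to 76.9 in parental dKO and 31.8 to 95.4 in parental libraries, with the T cell gene CD3E at 0 in both parental groups and LYZ at 0 in resistant and parental cells, and 1 of 6 genes averaged at least 1 CPM in each group. Endothelial markers summed to 3.46 to 18.1 CPM in resistant dKO and 1.89 to 15.0 in resistant libraries. In parental dKO and parental libraries they summed to 1.61 to 2.93 and 0.717 to 3.05 CPM. In that order of groups, mesothelial sums ran 66.8 to 77.1, 31.7 to 73.1, 15.0 to 96.9 and 36.1 to 76.4 CPM. Pericyte and smooth muscle sums were higher in resistant cells, at 41.1 to 62.7, 34.7 to 56.9, 17.7 to 21.4 and 13.1 to 25.9 CPM. At most 1, 5 and 5 of the 6 genes of these lists averaged 1 CPM or more in a group; TIE1 and DES were at 0 in parental cells and ITLN1 in all groups but resistant dKO.

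Together the 10 transcripts took up far more of the resistant libraries. Their summed level was 2092, 2814 and 2992 CPM in the 3 resistant dKO libraries, 3312, 2491 and 3703 in the resistant, 189, 942 and 872 in the parental dKO and 216, 286 and 302 in the parental libraries. SPARC and THBS1 made up 84.3% to 93.8% of that sum in resistant dKO and 90.2% to 97.0% in resistant libraries, against 19.0% to 75.1% in parental dKO and 26.5% to 45.2% in parental libraries. All 6 libraries of resistant cells lay above all 6 of parental cells, and the sum carries no test because the genes were chosen together. In a bulk library more cells that express a gene and more RNA per cell cannot be told apart.

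**Figure D1:**
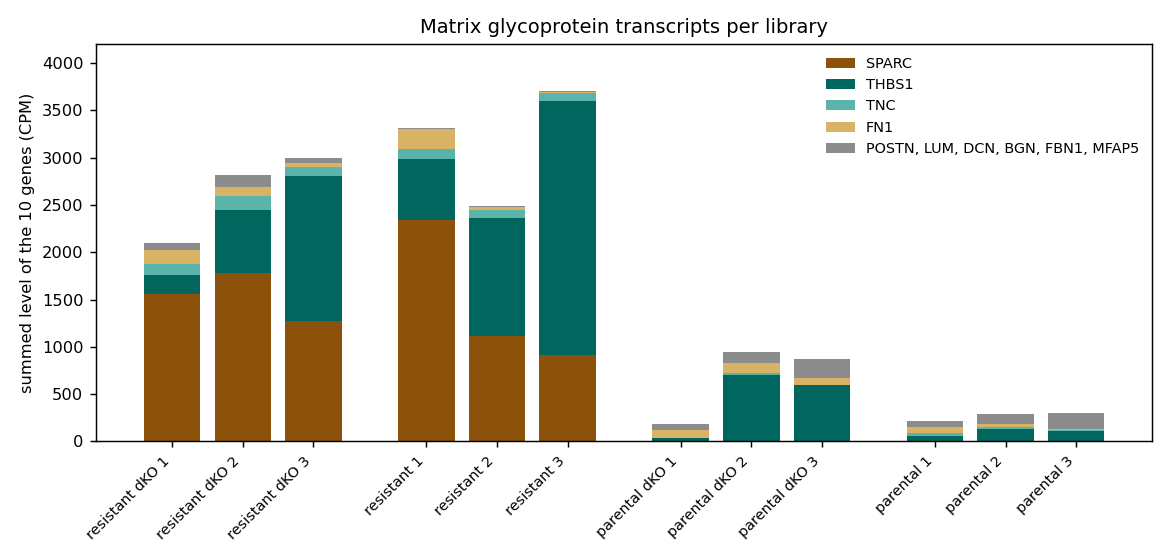
Summed level of the 10 transcripts (CPM, linear axis from 0) in each of the 12 libraries, stacked by gene. SPARC and THBS1 fill most of each bar in resistant cells (2092 to 3703 CPM in all), while parental bars stay between 189 and 942 CPM and hold almost no SPARC.

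Between resistant and parental cells, 4 of the 10 genes were higher (SPARC, POSTN, TNC and THBS1), 3 were lower (DCN, FBN1 and MFAP5), FN1 and LUM did not pass, and BGN was not tested because its counts were too low. Genes were called by edgeR's quasi-likelihood test at a Benjamini-Hochberg adjusted p of 0.05 over all 17947 genes tested, of which 28% were called, 15.2% higher and 12.8% lower. Libraries of the groups did not overlap for these 7 genes, as was the case for 45.5% of all genes tested (23.7% higher, 21.8% lower). Among the knockout libraries, which are different libraries of cells derived from the same 2 lines, 6 of the 7 were called again in the same direction, with THBS1 the exception. There 23.9% of all genes were called, 13.6% higher and 10.2% lower. Libraries of resistant dKO and parental dKO cells did not overlap for 3 higher and 2 lower members, against 37.2% of all genes tested, 20.3% higher and 16.9% lower. Over all genes, 3315 were called in both contrasts in the same direction, which is 65.9% of the calls without the knockout and 77.4% of those with it, so a call repeated among knockouts was common.

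**Figure D2:**
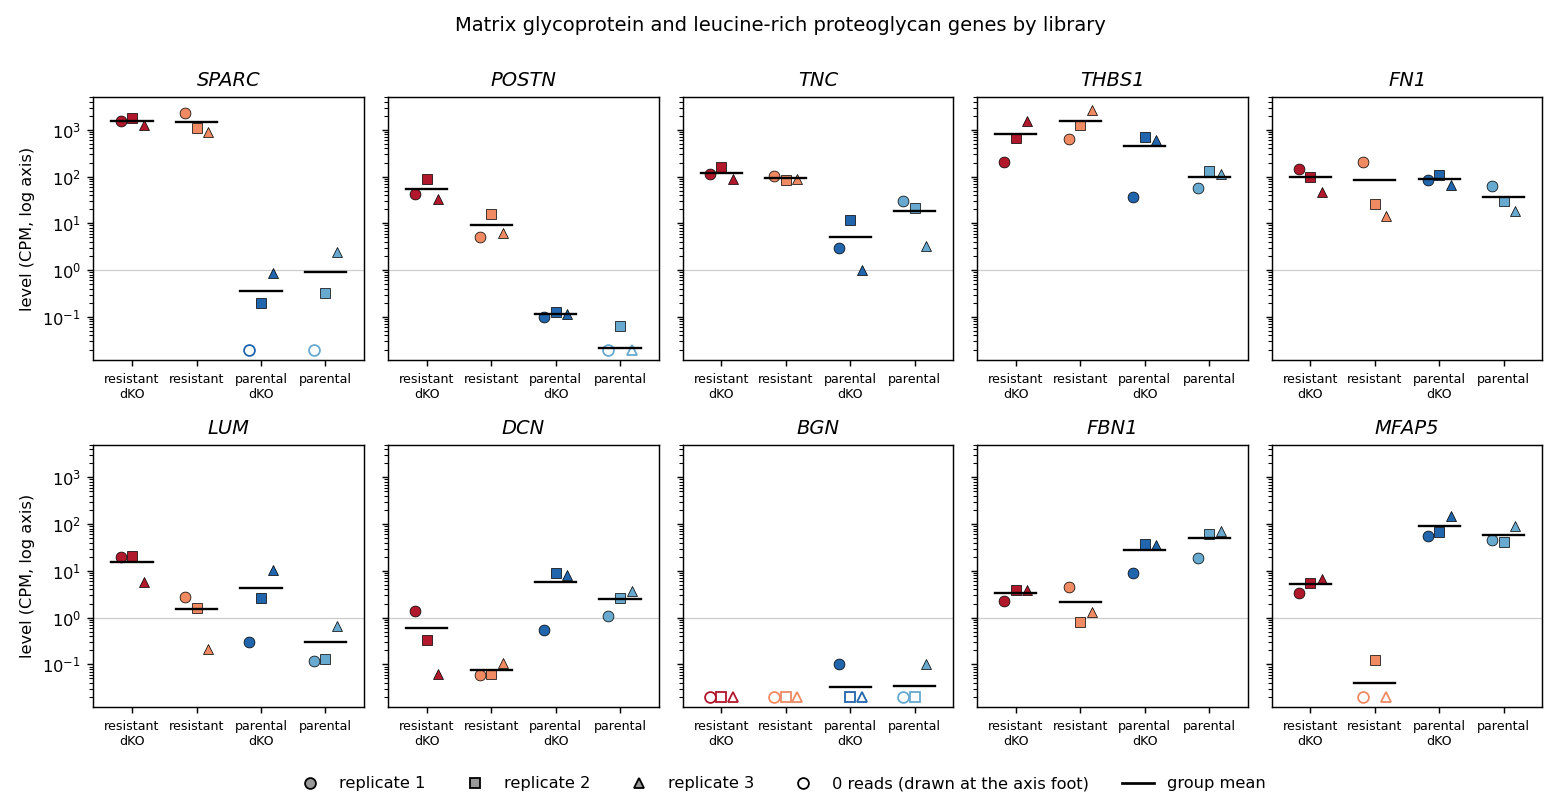
Level of each gene in CPM (log axis) in the 12 libraries, with replicate number by symbol, group means as bars and open symbols at the foot of the axis for libraries with 0 reads. SPARC stands at 916 to 2343 CPM in all 6 libraries of resistant cells and at 0 to 2.43 CPM in all 6 of parental cells, and MFAP5 shows the opposite order.

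SPARC (ENSG00000113140, GRCh38 chromosome 5, 151661096 to 151687165, minus strand), a collagen-binding protein that loosens cell attachment, was among the most abundant members in resistant cells and close to 0 in parental cells. It measured 1558, 1776 and 1270 CPM in resistant dKO libraries and 2343, 1117 and 916 in resistant libraries, against 0, 0.194 and 0.862 CPM in parental dKO and 0, 0.320 and 2.43 CPM in parental libraries. The libraries of resistant cells formed a band within 2.56-fold of each other, and parental cells held between 0 and 47 SPARC reads per library. The log2 fold change was 10.58 ± 1.27 (SE) in resistant against parental cells (adjusted p = 1e-04) and 12.09 ± 1.37 among knockouts (adjusted p = 8.45e-05). Of the 52 reads in parental libraries 47 came from library 3, without which the first value was 13.10. The second was 14.00 without parental dKO library 3 and 11.44 without parental dKO library 1. Between resistant dKO and resistant cells SPARC differed by 0.07 ± 0.83 on the log2 scale (adjusted p = 0.994).

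POSTN (ENSG00000133110, chromosome 13, 37562583 to 37598844, minus strand), whose product binds integrins and collagen, was close to 0 in parental cells. It measured 42.9, 88.8 and 32.7 CPM in resistant dKO and 5.19, 16.2 and 6.2 in resistant libraries, against 2 reads in each parental dKO library (0.1 to 0.129 CPM) and 1 read in the 3 parental libraries together. Every level in resistant dKO cells was above every level in resistant cells, and both were above all parental values. The ratio of resistant to parental was 465, with a 95% exact counting interval of 83 to 18399 that covers counting error only, and the fitted log2 fold change 8.44 ± 0.85 (adjusted p = 2.77e-05). The fitted value was 10.36 without parental library 2, which held the 1 parental read, and 7.75 without resistant library 2. Among knockouts it was 8.83 ± 0.73 (adjusted p = 9.16e-06). For resistant dKO against resistant cells the log2 fold change was 2.58 ± 0.50, which did not pass (adjusted p = 0.0662); DESeq2 called it at 0.000493 and limma-voom at 0.0307, and leaving out 1 library gave adjusted p from 0.0600 to 0.323.

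TNC (ENSG00000041982, chromosome 9, 115019578 to 115118257, minus strand), an anti-adhesive protein of remodelling tissue, measured 114, 157 and 90.1 CPM in resistant dKO and 102, 85.5 and 87.7 in resistant libraries. Parental dKO libraries held 2.96, 11.7 and 1.03 CPM and parental libraries 30.2, 21.1 and 3.31 CPM. Levels in resistant cells were tight, those in parental libraries spread over 9.11-fold, and no library of resistant cells reached down to a parental one. TNC was 2.34 ± 0.76 higher on the log2 scale in resistant than in parental cells (adjusted p = 0.0369), a call that was lost in 7 of 12 fits leaving out 1 library (adjusted p up to 0.0890, without parental library 2). Those libraries were resistant dKO 1 and 2, resistant 1, 2 and 3, and parental 2 and 3, with log2 fold changes of 1.81 to 2.46. Among knockouts it was 4.53 ± 0.85 higher (adjusted p = 0.00252), and 5.90 without parental dKO library 2. Between resistant dKO and resistant cells, whose libraries overlapped, it differed by 0.39 ± 0.73 (adjusted p = 0.963).

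THBS1 (ENSG00000137801, chromosome 15, 39581079 to 39599466, plus strand), which binds CD47 and CD36 and can activate latent TGF-beta, spread widely within groups. It measured 205, 665 and 1536 CPM in resistant dKO and 646, 1244 and 2677 in resistant libraries, against 36.0, 707 and 598 in parental dKO and 57.3, 129 and 111 CPM in parental libraries. Resistant and parental libraries did not overlap, while resistant dKO and parental dKO libraries did. The log2 fold change was 3.94 ± 0.98 in resistant against parental cells (adjusted p = 0.0105) and 0.84 ± 0.88 among knockouts (adjusted p = 0.519). Without resistant library 3, the highest, the first value was 3.29. Whether the knockout effects on THBS1 differed between backgrounds was tested directly: the difference was -3.10 ± 1.27 on the log2 scale and did not pass (adjusted p = 1 by edgeR), in a test that called 0.0279% of all genes, all higher.

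FN1 (ENSG00000115414, chromosome 2, 215360440 to 215436172, minus strand) was the only member read at over 10 CPM in all 12 libraries besides THBS1. It measured 145, 96.1 and 46.4 CPM in resistant dKO, 208, 26.4 and 14.1 in resistant, 86.2, 107 and 67.6 in parental dKO and 62.9, 29.6 and 18.2 CPM in parental libraries. Resistant library 1 stood apart from the other resistant libraries. Resistant libraries overlapped with resistant dKO and with parental ones, and resistant dKO with parental dKO ones, while all parental dKO libraries lay above all parental ones. The log2 fold change in resistant against parental cells was 1.17 ± 0.80 (adjusted p = 0.297) and turned to -0.86 without resistant library 1. Among knockouts it was 0.14 ± 0.79 (adjusted p = 0.913).

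The leucine-rich proteoglycan genes were read at low levels. Between resistant and parental cells LUM averaged higher and DCN lower, and only the DCN difference passed. With the knockout both averaged higher in both backgrounds, and neither passed in the main edgeR fit. LUM (ENSG00000139329, chromosome 12, 91102629 to 91111831, minus strand) and DCN (ENSG00000011465, chromosome 12, 91140484 to 91183123, minus strand) are neighbours 28652 bases apart. LUM measured 20.0, 20.9 and 5.74 CPM in resistant dKO and 2.74, 1.64 and 0.210 in resistant libraries, against 0.301, 2.65 and 10.2 in parental dKO and 0.119, 0.128 and 0.673 CPM in parental libraries. In both backgrounds the knockout libraries averaged higher, 15.6 ± 8.53 against 1.53 ± 1.27 CPM in resistant and 4.39 ± 5.19 against 0.307 ± 0.317 CPM in parental cells (SD, n = 3 each). Resistant dKO libraries all lay above resistant ones; parental dKO and parental libraries overlapped. The difference of resistant from parental cells did not pass (log2 fold change 2.24 ± 1.18, adjusted p = 0.173). Among knockouts the value was 1.83 ± 1.01 (adjusted p = 0.206), and it passed without parental dKO library 3, at 3.41 (adjusted p = 0.0397).

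DCN measured 1.39, 0.332 and 0.062 CPM in resistant dKO and 0.058, 0.061 and 0.105 in resistant libraries, the last from 1, 1 and 2 reads. Parental dKO libraries held 0.551, 8.78 and 7.99 CPM and parental libraries 1.08, 2.69 and 3.62 CPM. All resistant libraries lay below all parental ones, while resistant dKO library 1 stood above parental dKO library 1. The log2 fold change was -4.90 ± 1.22 in resistant against parental cells (adjusted p = 0.0104). Among knockouts it was -3.23 ± 0.99 (adjusted p = 0.0310), a call lost without resistant dKO library 2 or 3 or parental dKO library 2 or 3 (adjusted p 0.0575 to 0.109). It was also lost with limma-voom (0.0796), with only the libraries of the contrast (0.0722) and with the replicate block over all 12 libraries (0.101), and the value was -4.81 without resistant dKO library 1. BGN (ENSG00000182492, chromosome X, 153494939 to 153509554, plus strand) had 4 reads in all, 2 in parental dKO library 1 and 2 in parental library 3. It had no read in the 6 libraries of resistant cells, which by 3 counts over a group allows means of up to 0.055 CPM in resistant dKO and 0.057 in resistant cells. KERA and EPYC, the next genes beyond LUM and members of the same family, had 5 and 1 reads in all 12 libraries.

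The microfibril members, FBN1 and MFAP5, differed in the same direction as DCN, with and without the knockout. FBN1 (ENSG00000166147, chromosome 15, 48408306 to 48645849, minus strand) measured 2.28, 3.93 and 3.95 CPM in resistant dKO and 4.49, 0.792 and 1.31 in resistant libraries, against 8.82, 37.6 and 35.8 in parental dKO and 18.8, 62.1 and 72.9 CPM in parental libraries. No library of resistant cells reached a parental one. It was lower by both contrasts, at -4.54 ± 0.76 on the log2 scale in resistant against parental cells (adjusted p = 0.00104) and -3.01 ± 0.71 among knockouts (adjusted p = 0.00890). The first value was -5.59 without resistant library 1, the highest of its group. Between resistant dKO and resistant cells it differed by 0.62 ± 0.69 (adjusted p = 0.908), with resistant library 1 above all 3 resistant dKO libraries.

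MFAP5 (ENSG00000197614, chromosome 12, 8637346 to 8662888, minus strand) was the one member called between knockout and control in the main edgeR fit, which had no replicate block. It measured 3.37, 5.37 and 6.73 CPM in resistant dKO libraries against 0, 0.122 and 0 CPM in resistant libraries, and 54.3, 66.8 and 151 CPM in parental dKO against 45.6, 41.2 and 89.5 CPM in parental libraries. The resistant libraries held 2 reads in all, the resistant dKO libraries 274. The fitted log2 fold change was 6.83 ± 0.82 for resistant dKO against resistant cells (adjusted p = 0.00526), where 0.212% of all genes were called, all of them higher. Libraries of these groups did not overlap for 3 members, POSTN, LUM and MFAP5, all higher, against 8.02% of all genes higher and 7.17% lower (15.2% in all). By edgeR an unadjusted p under 0.05 was found for 4 members, these and DCN, and for 1426 of all 17947 genes. LUM (log2 fold change 3.35 ± 1.08, adjusted p = 0.389) and DCN (2.89 ± 1.25, adjusted p = 0.588) did not pass. The MFAP5 value ran from 6.25 to 9.51 (without resistant library 2) over fits leaving out 1 library, and its call was lost without resistant library 3 (6.25, adjusted p = 0.0629). The level in resistant dKO cells was 8.77% of the parental mean, so MFAP5 in these cells lay between resistant and parental levels. In resistant against parental cells the log2 fold change was -10.34 ± 0.82 (adjusted p = 4.66e-06), with a ratio of parental over resistant of 1596 (counting interval 441 to 13184), and the log2 value was -13.03 without resistant library 2, which held both resistant reads. That comparison and the knockout comparison share the 3 resistant libraries. Among knockouts, which share none with it, the value was -4.14 ± 0.53 (adjusted p = 0.000208). The difference of the knockout effects was 6.21 ± 0.99 and did not pass (adjusted p = 0.0658), while DESeq2 called it.

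**Figure D3:**
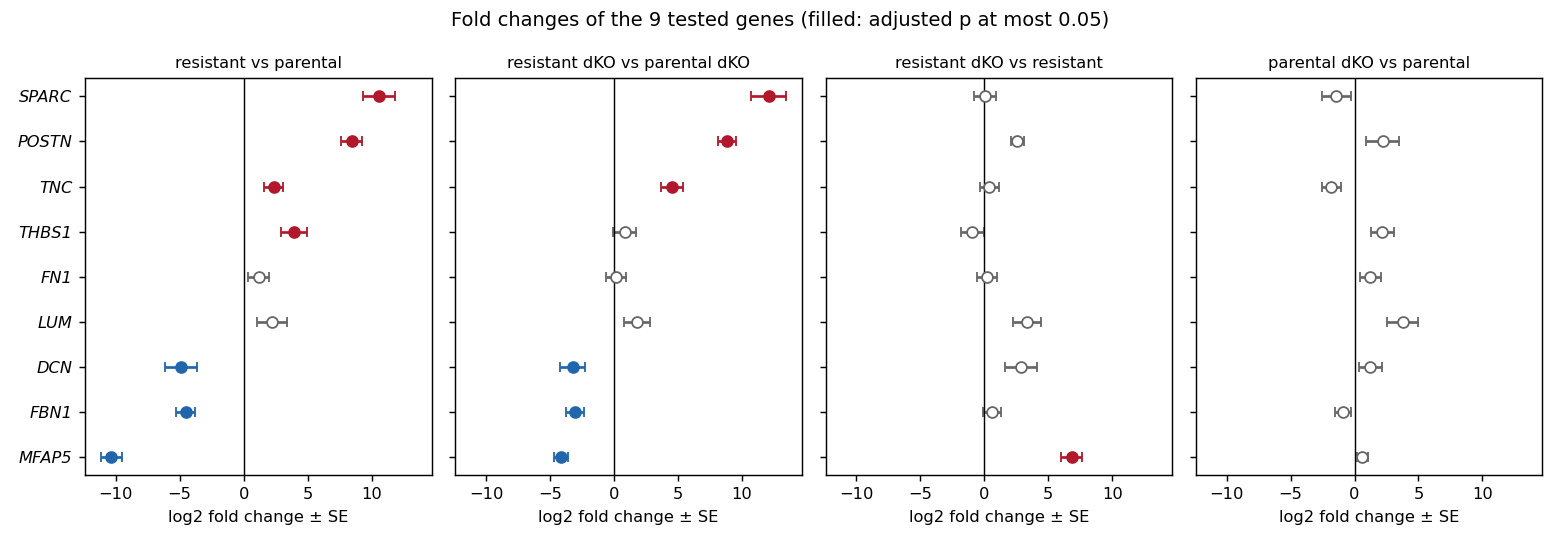
Log2 fold change ± SE of the 9 tested genes in 4 contrasts, with filled points for an adjusted p at or below 0.05 (red higher, blue lower). SPARC, POSTN and TNC lie to the right and DCN, FBN1 and MFAP5 to the left in both comparisons of resistant with parental cells, and MFAP5 is the single filled point in the knockout comparisons (6.83 in resistant cells).

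In parental dKO against parental cells 0 of the 9 tested members were called by edgeR's quasi-likelihood test, and 0% of all genes; 3 members, LUM, TNC and THBS1, had an unadjusted p under 0.05, as had 539 of all 17947 genes. DESeq2 and limma-voom also called 0 members, and 11 and 1 genes in all. Libraries did not overlap for FN1 and POSTN, both higher, against 6.59% of all genes (3.2% higher, 3.38% lower). Parental libraries with the same replicate number varied together, so the comparison was repeated with the number as a block within each background, which called 154 genes. Without the block LUM differed by 3.76 ± 1.19, TNC by -1.80 ± 0.77 and THBS1 by 2.17 ± 0.91 on the log2 scale (adjusted p = 1 each). With it LUM was called, at 3.70 ± 0.50 on the log2 scale (adjusted p = 0.00351), being higher in parental dKO than in parental libraries in 3 of 3 pairs, by 2.52, 20.7 and 15.2 times. TNC was also called, at -1.94 ± 0.38 (adjusted p = 0.0289), and was lower in 3 of 3 pairs, with parental over parental dKO ratios of 10.2, 1.80 and 3.20. FN1, MFAP5 and POSTN were higher in 3 of 3 pairs without passing (adjusted p 0.185, 0.283 and 0.411), and FBN1 was lower in 3 of 3 (adjusted p = 0.277). THBS1 and DCN were lower in the dKO library of pair 1 and higher in the other pairs.

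Within groups the members did not share 1 order of libraries. In parental dKO and in parental cells, library 1 had the lowest level of THBS1, DCN, FBN1, LUM and SPARC in both groups, and library 3 the lowest level of TNC and FN1. In resistant dKO and in resistant cells, library 1 had the lowest and library 3 the highest THBS1, while FN1 had its highest level in library 1 and its lowest in library 3 of both groups. SPARC made up 42.5% to 74.5% of the summed level in resistant dKO and 24.7% to 70.7% in resistant libraries, with library 3 lowest and library 1 highest in both groups.

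Scaled by length, as CPM per kilobase of the union of annotated exons, SPARC led in resistant dKO (318) and resistant cells (302), followed by THBS1 (87.6 and 166), TNC (12.5 and 9.54) and then POSTN (10.0) in resistant dKO and FN1 (4.78) in resistant cells. In parental dKO cells the order was THBS1 (48.8), MFAP5 (23.4) and FN1 (5.02), and in parental cells MFAP5 (15.2), THBS1 (10.8) and FBN1 (3.19). Some neighbours in these orders overlapped between libraries and others did not. In resistant dKO libraries SPARC (263 to 368) lay above THBS1 (22.3 to 168), and THBS1 above TNC. THBS1 also lay above TNC in resistant libraries. In parental dKO libraries MFAP5 lay above FN1 (3.91 to 6.17), and in parental libraries THBS1 lay above FBN1 (1.17 to 4.54). In resistant dKO libraries TNC and POSTN overlapped (9.35 to 16.3 and 5.99 to 16.3 CPM per kilobase). In resistant libraries SPARC and THBS1 overlapped (190 to 485 and 70.6 to 292), as did TNC and FN1 (8.88 to 10.6 and 0.814 to 12.0). In parental dKO libraries THBS1 (3.93 to 77.2) overlapped with MFAP5 (14.0 to 38.9) and lay below it in library 1. In parental libraries MFAP5 and THBS1 overlapped (10.6 to 23.1 and 6.26 to 14.1).

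Relatives of the members and their partners were read from 8 lists with 104 entries, and each list's share of called genes is set beside the 28% called of all genes in resistant against parental cells and the 23.9% among knockouts. Of 22 other microfibril and elastic fibre genes 19 were tested; 10 were higher and 0 lower in resistant than in parental cells (52.6% called), with a median log2 fold change of 1.65 against 0.02 over all genes tested, and among knockouts 9 were higher and 0 lower (47.4% called). They included the lysyl oxidase LOXL2 (1045 and 1497 CPM in resistant dKO and resistant cells, 169 and 152 in parental dKO and parental cells), LTBP3, which holds latent TGF-beta in the matrix (835, 1304, 139 and 125 CPM in the same order), FBLN1 (195, 226, 10.9 and 8.97 CPM) and LOXL4 (165, 195, 3.32 and 2.85 CPM). FBN1 and MFAP5 thus differed in the opposite direction to the members of this list that passed.

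Of the 7 tested relatives of SPARC and periostin, 3 were higher and 3 lower in resistant cells (85.7% called, median -0.46). The follistatin-like gene FSTL1 (log2 fold change 3.19 ± 0.61) and the proteoglycan genes SPOCK1 (1.97 ± 0.63) and SPOCK2 (2.89 ± 0.62) were higher, and the calcium-binding SMOC1 (-4.92 ± 0.59) was lower. Among knockouts 2 were higher and 3 lower (71.4% called). Of 4 tested thrombospondins and tenascins 2 were higher in each of these contrasts (50% called, medians 1.27 and 1.78): THBS4 averaged 5.70 and 3.39 CPM in resistant dKO and resistant cells and 1.05 and 1.13 in parental dKO and parental cells, and COMP 3.44 and 2.42 CPM against 0.038 and 0. Of 14 other leucine-rich proteoglycan genes 4 had enough counts to be tested; PODNL1 was higher (2.52 ± 0.64) and NYX lower in resistant cells (50% called, median -0.90), and among knockouts ECM2 was lower as well (-3.13 ± 0.89; 75% called).

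Receptors for these ligands were 6 higher and 0 lower of 17 tested in resistant cells (median 1.32), a called share of 35.3% against 28% of all genes. Integrin chains ITGB1 (1.38 ± 0.48) and ITGA5 (1.46 ± 0.48), which together bind fibronectin, the heparan sulfate proteoglycan SDC4 (1.00 ± 0.29) and ITGA4 (2.60 ± 0.91) were among them. Among knockouts 5 were higher, with ITGA5, ITGA4 and the collagen receptor chain ITGA2 (2.03 ± 0.62), and ITGB8 was lower (-2.50 ± 0.59; 35.3% called, median 0.92). Enzymes of chain assembly and propeptide removal were 4 higher and 1 lower of 16 (median 0.73), a called share of 31.2% that is near the 28% of all genes, with the chondroitin polymerising factor CHPF (1.54 ± 0.40), the dermatan sulfotransferase CHST14 (1.80 ± 0.40) and PCOLCE2 higher and the chondroitin sulfotransferase CHST11 lower (-1.15 ± 0.34). Among knockouts the procollagen proteinase BMP1 (1.94 ± 0.58) and CHST14 were higher and XYLT1, which starts the chains, was lower (-2.24 ± 0.70; 18.8% called, median 0.37). Of 11 TGF-beta pathway genes 3 were higher and 0 lower in both contrasts (medians 0.92 and 0.21), a called share of 27.3% that is near the 28% and 23.9% of all genes. TGFB2 averaged 58.9 and 101 CPM in resistant dKO and resistant cells against 2.39 and 1.45 in parental dKO and parental cells, and TGFB3 6.26 and 5.27 against 0.863 and 0.809 CPM. No gene of these 7 lists passed in resistant dKO against resistant cells or in parental dKO against parental cells.

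**Figure D4:**
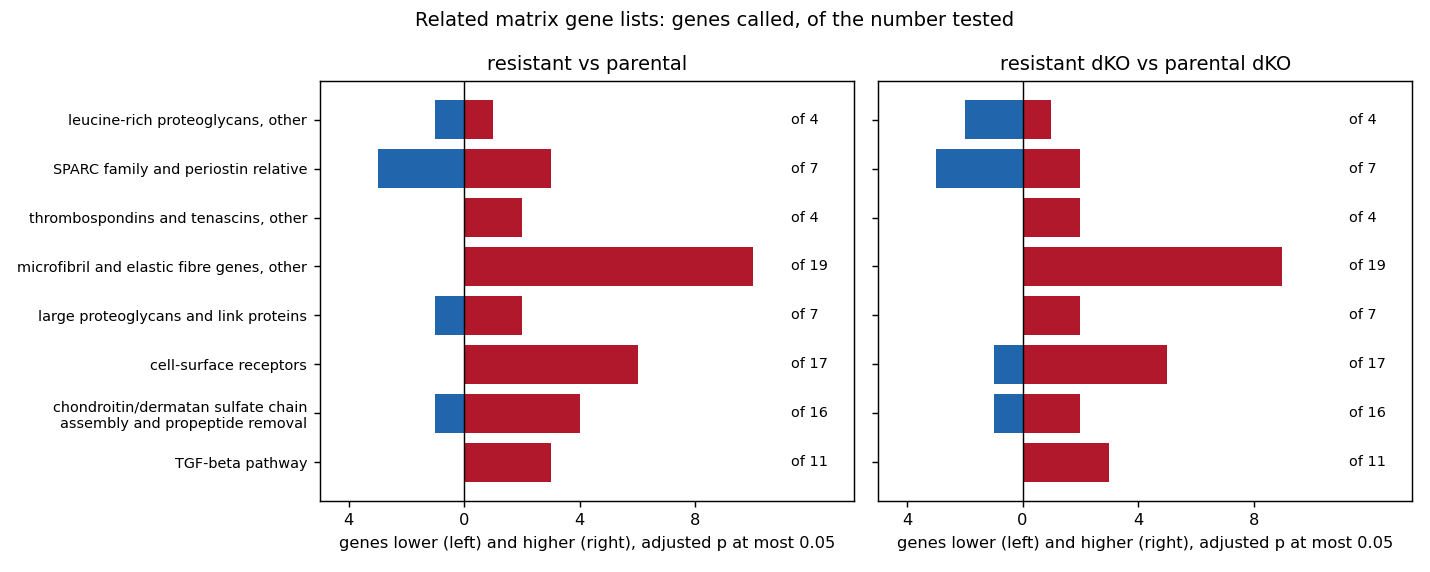
Genes of 8 related lists called lower (left, blue) and higher (right, red) at an adjusted p of at most 0.05, with the number tested beside each bar, in resistant against parental cells and in resistant dKO against parental dKO cells. The microfibril and elastic fibre list has 10 and 9 genes higher and 0 lower of 19.

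The genes whose profiles over the 12 libraries lay nearest to each member were found among 12751 others with a group mean of at least 5 CPM, by the root-mean-square difference of mean-centred log2 CPM. The nearest to SPARC was the teneurin gene TENM2 (1.28, against a median of 6.05 over all candidates) and the nearest to MFAP5 was CALB1 (0.57, median 3.67). CST6 lay nearest to POSTN (0.44, median 3.66), KIF26A to TNC (0.75, median 2.38), GDF6 to THBS1 (0.92, median 1.96), SOD3 to DCN (0.70, median 2.07) and ITGB4 to FBN1 (0.60, median 2.08). SERPING1 lay nearest to LUM (1.05, median 2.38) and HLA-B to FN1 (0.71, median 1.3). The 12 libraries share their group structure, so a small difference mostly says that the group levels are alike.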

How the data were processed

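The deposited table holds raw counts per gene for 12 poly(A) RNA libraries. The trimmer Trim Galore 0.6.10, the aligner STAR 2.7.10a (with build GRCh38) and the counter featureCounts 2.0.1 are named in the submitters' processing notes. The sources used here do not give the annotation, the strand setting or the treatment of multi-mapped reads. Reads of SPARC, TNC, THBS1 and MFAP5 may therefore mix with those of overlapping genes on the opposite strand, which held at most 211 counts each over all libraries. For 2 columns with a misspelled line name, the remaining letters and number identified resistant libraries 2 and 3. The table's second copy held identical values (833588 cells compared). Coordinates and exon lengths came from GENCODE release 29.

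Genes were filtered with filterByExpr (17947 kept) and scaled with TMM in edgeR 4.0.16 (R 4.3.3). All 12 libraries entered 1 quasi-likelihood fit with 1 coefficient per group, from which 5 contrasts were drawn. The SE is the absolute log2 fold change over the root of F. Alternatives included DESeq2 1.42.0, limma-voom (limma 3.58.1), other scalings and filters, replicate blocks and leaving out libraries. The procedure was tested on simulated counts with changes in 1 group and no pairing of libraries. That test does not show how the unblocked fit behaves on these data. Library pairs within groups differed beyond counting noise (chi-square over its degrees of freedom from 26.8 to 205), so none was counted as a duplicate. Deviations from group means correlated at 0.66, 0.77 and 0.78 for same-numbered parental dKO and parental libraries, so numbers were taken to pair these. In resistant cells the values were 0.57, -0.19 and 0.64, and numbers were not read as pairs. The alternative fit with a block within each background nevertheless pairs resistant libraries by number too.

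All 10 members are named; of each list, up to 4 genes per contrast that passed, by level; for each member, the gene with the nearest profile. One gene that this rule names is not reported here. The members, lists and tests were chosen with earlier results of these data known. Depth (15659352 to 19706754 counts a library) sets the counting precision only, and the spread between libraries exceeded it. Counting intervals cover counting error only, since no molecular identifiers are named.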

Additional observations from a re-analysis of the deposited data

How the results depend on the processing

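Every called member kept its direction under every alternative run. Between resistant and parental cells the number of members called was 7 in the main analysis and 6 to 9 otherwise (6 to 7 leaving out 1 library), and among knockouts 6 against 5 to 7 (5 to 6 leaving out 1 library). The highest numbers, 9 and 7, came with no filter beyond 1 count, where 5730 and 5188 of all 41281 genes were called. In parental dKO against parental cells the number of members called was 0. It was 3 with no filter beyond 1 count (83 of all 41281 genes called) and 2 with the replicate block within each background (154 of 17947). Leaving out 1 library gave 0 throughout. In resistant dKO against resistant cells it was 1 (MFAP5), against 4 with no filter beyond 1 count, 2 with DESeq2, 2 with limma-voom (44 genes called in all), 2 with the replicate block over all 12 libraries (55 genes), 3 with the replicate block within each background and 0 to 1 leaving out 1 library. POSTN was the gene added by DESeq2, limma-voom and the block over all libraries, and POSTN and LUM by the block within backgrounds. The block within backgrounds also pairs resistant dKO and resistant libraries by number. Their correlations (0.57, -0.19 and 0.64) did not bear that pairing out, so calls that rest on it are uncertain. For the difference of the knockout effects it was 0 by edgeR (5 genes called in all) and 0 by limma-voom (5 genes). By edgeR 2 members had an unadjusted p under 0.05, as had 678 of all 17947 genes. The number called was 1 with library size alone (11 genes in all), 1 with DESeq2 (67) and 1 with the replicate block over all 12 libraries (18). It was also 1 without both parental libraries numbered 3 (10 genes) and 3 with no filter beyond 1 count (161 of 41281). MFAP5 was called in each setting that called 1 or 3 members. The number was 2 (TNC and MFAP5) with the replicate block within each background (274 of 17947 genes), and 0 to 1 leaving out 1 library. Over all genes the counts also moved: in resistant dKO against resistant cells from 38 to 249 with DESeq2, 451 with no filter beyond 1 count, 939 with the replicate block within each background and 4 without resistant library 3. Between resistant and parental cells 5030 became 3081 without parental library 2, and among knockouts 4281 became 2715 and 2714 without resistant dKO library 1 and 2. There, library size alone gave 2928 higher and 1368 lower genes, against 2445 and 1836, with the median of all genes at 0.15 (log2) against 0. The causes were not tested. limma-voom moved 4 called values by over 1.5 times: SPARC to 12.09 and POSTN to 7.57 in resistant against parental cells, and SPARC to 13.17 and TNC to 5.16 among knockouts. Few reads limit BGN (4 in all 12 libraries), DCN (4) and MFAP5 (2) in resistant and POSTN (1) in parental libraries.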

Other observations

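Large proteoglycans and their hyaluronan link proteins, which the text above does not cover, differed in both directions. VCAN, the main hyaluronan-binding proteoglycan of soft tissue, averaged 69.6 and 50.1 CPM in resistant dKO and resistant cells against 349 and 723 CPM in parental dKO and parental cells, and was lower in resistant than in parental cells (log2 fold change -3.85 ± 0.87, adjusted p = 0.00599 by edgeR). The link protein gene HAPLN3 averaged 47.2 and 83.6 CPM in resistant dKO and resistant cells against 2.37 and 2.30 CPM in parental dKO and parental cells (5.17 ± 0.75 in resistant against parental cells). HAPLN1 averaged 89.1 CPM in resistant dKO, 7.02 in resistant, 1.73 in parental dKO and 0.286 CPM in parental cells. Of the 7 tested genes of this list, 2 were higher and 1 lower in resistant against parental cells (42.9% called, against 28% of all genes; median 0.11), 2 higher and 0 lower among knockouts (28.6% called, against 23.9%), and 1, HAPLN1, was higher in resistant dKO than in resistant cells (3.67 ± 0.55, adjusted p = 0.0218).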
